A study of Homo sapiens with 12 samples.

Results

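The HOX cluster genes were taken from the deposited gene table as the protein-coding rows whose symbol is HOX followed by the cluster letter A, B, C or D and a number, which gave 35 of the 36502 genes listed. Expression was measured by RNA sequencing in 12 libraries of HT1080, a human fibrosarcoma cell line, in a series about contacts between the genome and the nuclear lamina. HT1080 clones carried the m6A-Tracer, a protein that binds adenine-methylated DNA, together with Dam-LaminB1, a lamin B1 fused to a bacterial adenine methyltransferase that marks DNA at the lamina. In one clone the tracer was joined to VP16, a viral transcriptional activation domain (the VP16 clone), and in the other it was joined to GFP alone (the GFP clone).

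Each clone was sequenced in 3 conditions with 2 libraries each. Uninduced cells (m6ATracer-VP16-/DamLaminB1- and m6ATracer-GFP-/DamLaminB1-) were kept for 4 days in 50 ng/ml doxycycline, which represses the tracer. Tracer cells (m6ATracer-VP16+/DamLaminB1- and m6ATracer-GFP+/DamLaminB1-) had 3 days in doxycycline and then 24 h without it. Cells with tracer and Dam (m6ATracer-VP16+/DamLaminB1+ and m6ATracer-GFP+/DamLaminB1+) were treated in the same way, with 500 nM Shield1 present after doxycycline was removed to induce Dam-LaminB1. All 6 groups were therefore grown in doxycycline at first. Each construct is in 1 clone, so the construct and the clone cannot be told apart, and neither can the tracer and the loss of doxycycline, or Dam-LaminB1 and Shield1. The series calls the second library of a group a biological replicate without saying whether it came from a separate culture, so the p-values measure the spread between libraries, which may be technical.

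HOX genes encode homeodomain transcription factors that give cells their position along the body axis. They lie in 4 clusters, and the order of the genes along a cluster follows the order in which they are used from head to tail: low paralog numbers at the 3′ end act towards the head and high numbers at the 5′ end towards the tail and the limb tips. Adult fibroblasts and cell lines derived from them keep a HOX pattern that reflects where in the body they came from, held in place by Trithorax and Polycomb chromatin proteins.

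The libraries held 18774905 to 24827396 reads assigned to genes, of which 4417 to 6282 fell on HOX genes. Levels are given as CPM, a gene's reads divided by the library's reads and put on the usual CPM scale, after scaling by the trimmed mean of M values (TMM), and as CPM per kb of exon where genes are compared with each other. Of 10 fibroblast and mesenchymal markers 9 averaged at least 1 CPM, against 3 of 7 epithelial and 0 of 6 blood markers, with PTPRC and HBB at no more than 3 reads in every library. The sample numbers 1 to 6 and 7 to 12 each use the same 6 index sequences once and hold 1 library of every group; these are called index set 1 and index set 2, and the labels do not say what else sets them apart. Within index set 1, the GFP tracer and the GFP tracer with Dam libraries stood apart from the other 10 on the first principal component of all genes (45.4% of the variance), at -78.2 and -87.0 against -16.2 to 41.0. Without them 9 fibroblast, 2 epithelial and 0 blood markers averaged at least 1 CPM. Results that rest on these 2 libraries are given with and without them.

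HT1080 expressed HOX genes from all 4 clusters, and the clusters differed in which positions were on. With on defined as a mean of at least 1 CPM over the 12 libraries, 27 of the 35 genes were on. Another 3 were low, meaning below 1 CPM but above 3 reads in some library (HOXA2, HOXA3 and HOXD12), and 5 were not detected, with at most 3 reads in any library (HOXA11, HOXD1, HOXD3, HOXD4 and HOXD13). All listed genes of HOXB and HOXC were on, 9 of 9 and 7 of 7. HOXA7, HOXB1, HOXC11 and HOXC12 are not among the 35 genes, so whether these positions were on cannot be told. HOXA had 7 of 10 genes on, and HOXD had 4 of 9, which are the 4 neighbours HOXD8, HOXD9, HOXD10 and HOXD11. By position, 3 of 7 listed genes of paralog groups 1 to 3 were on, 13 of 14 of groups 4 to 8 and 11 of 14 of groups 9 to 13.

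**Figure D1:**
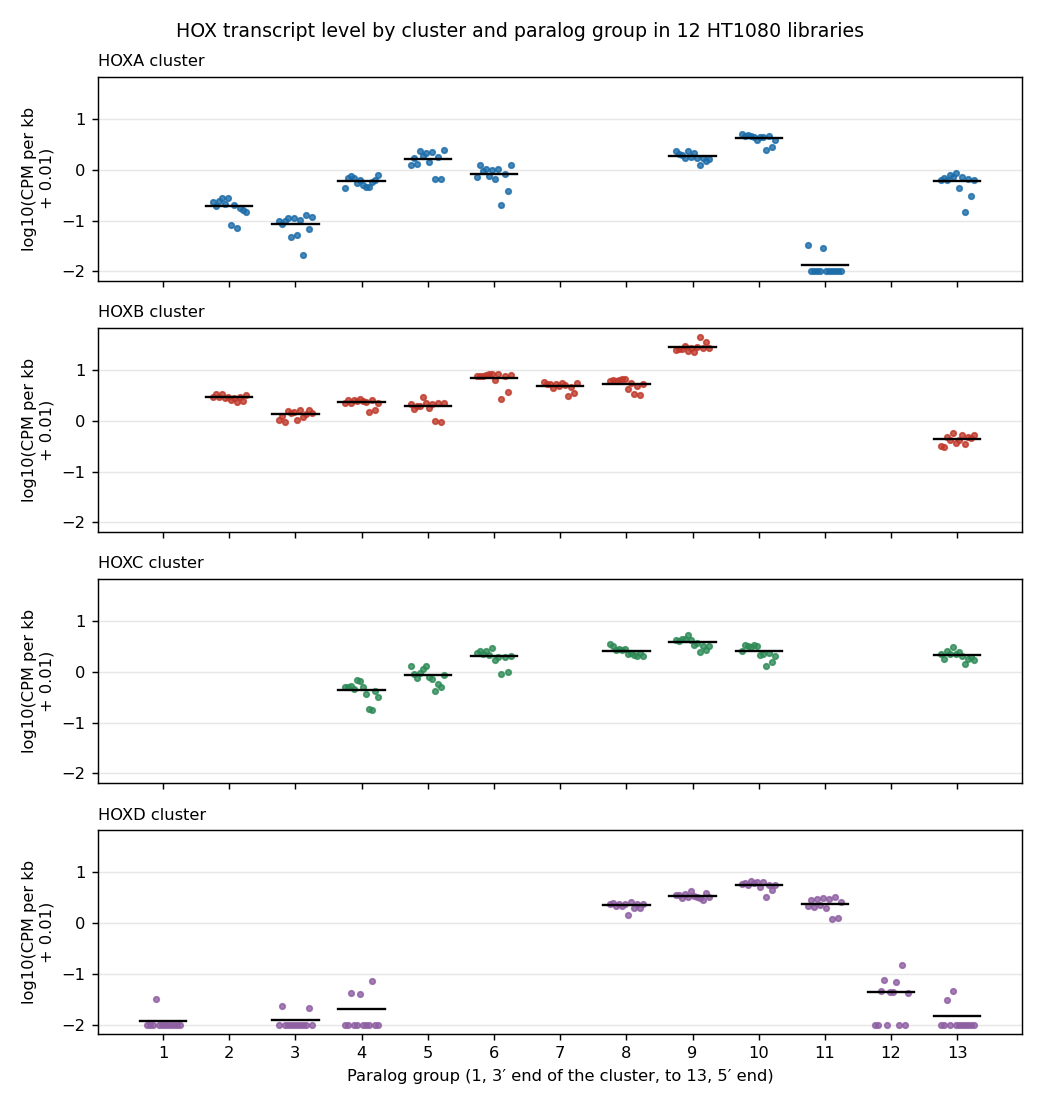
Level of 34 HOX genes, as log10 of CPM per kb of exon plus 0.01, against its paralog group, with 1 panel per cluster. Each dot is 1 of the 12 libraries, with the 6 VP16 libraries left of the 6 GFP libraries at each gene, and the black bar marks the log10 of the mean level plus 0.01; HOXB9 lies highest with a mean of 28.7 CPM per kb, and in HOXD only the block from HOXD8 to HOXD11 stands well above the bottom of the axis.

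HOXB had the largest summed level of the 4 clusters, and HOXB9 was its most abundant gene. HOXB9 made up 44.6% to 50.5% of the HOXB level in 10 libraries, and 73.0% and 65.6% in the 2 that stood apart. HOXB genes summed to a mean of 141.7 of the 240.5 HOX CPM, with 34.1 CPM from HOXA, 32.4 CPM from HOXC and 32.4 CPM from HOXD. HOXB9, which patterns the thoracic skeleton and the mammary gland in mice, averaged 74.1 ± 15.0 CPM (SD, n = 12) and 28.7 ± 5.82 CPM per kb. Its lowest library had 59.4 CPM, the median was 70.4 CPM and the highest was 114 CPM, so that even its lowest level per kb, 23.0, was above the highest of any other HOX gene, 8.38 for HOXB6.

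HOXB6 was second, at 7.02 ± 1.87 CPM per kb, with 7.16 CPM in its lowest library, a median of 20.2 CPM and 21.8 CPM in its highest. HOXD10, which specifies motor neurons of the hindlimb levels in mice, followed at 5.60 ± 0.95 CPM per kb and ranged over 8.72, 15.6 and 17.96 CPM (lowest, median, highest). HOXB8, HOXB7, HOXA10, HOXC9 and HOXD9 came next, with means of 5.41, 4.87, 4.17, 3.81 and 3.43 CPM per kb and SDs of 1.24, 0.84, 0.80, 0.83 and 0.40. From HOXB6 on, neighbours in this order lay closer together than the spread over their libraries. The other 19 genes that were on averaged 0.426 (HOXB13) to 2.88 (HOXB2) CPM per kb. HOXD9 and HOXB2 varied least over the 12 libraries, with SDs of 11.7% and 11.8% of the mean.

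In the HOXA cluster, HOXA10 led with 9.26, 16.6 and 19.1 CPM as the lowest, median and highest library, and HOXA9, a gene best known for its role in blood progenitors and leukaemia, was second at 3.77, 5.26 and 7.11 CPM. The next gene towards the 5′ end, HOXA11, which shapes the forearm and uterus, was not detected: 2 reads fell on it over all 12 libraries. HOXA13, at the 5′ end and needed for the digits and the genital tract, was on again at 0.686, 3.23 and 4.34 CPM. Towards the 3′ end, HOXA2 and HOXA3 averaged 0.443 and 0.331 CPM. HOXA4 and HOXA6 lay just above the line at 1.03 and 1.06 CPM, and HOXA2 was the closest gene under it.

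HOXC9 and HOXC8, both regional genes of the trunk skeleton in mice, led HOXC per kb of exon. Their means were 3.81 ± 0.83 and 2.58 ± 0.48 CPM per kb, and HOXC10 was close to HOXC8 at 2.55 ± 0.71. In CPM without the exon length HOXC6 was highest, with a mean of 7.25 CPM. HOXC9 had 4.21, 6.50 and 9.16 CPM and HOXC8 had 3.80, 4.73 and 6.57 CPM as the lowest, median and highest library. Levels were lowest at the 3′ end of this cluster, at 0.849 ± 0.289 CPM per kb for HOXC5 and 0.438 ± 0.163 CPM per kb for HOXC4.

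HOXD10 and HOXD9 led HOXD, with HOXD9 at 5.24, 6.27 and 8.05 CPM, and HOXD11 and HOXD8 averaged 2.36 and 2.23 CPM per kb. Both sides of this block were at or near 0. HOXD4 had 4 reads in all, HOXD3 had 2 and HOXD1 had 1, and on the other side HOXD12 and HOXD13 had 12 and 3. A count of 0 allows up to 3 reads, or 0.121 to 0.160 CPM in these libraries, so levels below that could not be seen. That floor does not cover reads lost in shared exons. Of the exon length, 80.5% of HOXD4, 74.1% of HOXD3 and 58.1% of HOXD1 is also exon of another annotated gene. On the same strand the shares are 80.5%, 62.2% and 2.99%. HOXD12 and HOXD13 share 0%. Reads of HOXD4, HOXD3 and HOXD1 may have been left out, so their low counts are uncertain to that extent.

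For 18 of the 35 genes RefSeq (GRCh38.p14) gave 25 promoter windows, each from 250 bases before to 50 bases after a start. The 6 windows below are shown to set neighbours that were on beside neighbours that were not detected (HOXA10 and HOXA11; HOXD11, HOXD8 and HOXD4), and to show a start that RefSeq lists for both HOXC4, which was higher in the VP16 clone, and HOXC5. Capitals mark CpG dinucleotides, all lines read 5′ to 3′, and the windows are chr12:54016638-54016937 (+) for HOXC4 and HOXC5, chr2:176107030-176107329 (+) for HOXD11, chr2:176129455-176129754 (+) for HOXD8, chr2:176151300-176151599 (+) for HOXD4, chr7:27174271-27174570 (-) for HOXA10 and chr7:27185183-27185482 (-) for HOXA11.
HOXC4: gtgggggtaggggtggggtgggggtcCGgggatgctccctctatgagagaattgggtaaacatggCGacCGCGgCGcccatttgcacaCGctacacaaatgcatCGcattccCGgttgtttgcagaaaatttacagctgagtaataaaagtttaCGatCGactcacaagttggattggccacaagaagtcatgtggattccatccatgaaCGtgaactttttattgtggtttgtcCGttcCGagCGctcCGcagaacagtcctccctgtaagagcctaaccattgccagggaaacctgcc
HOXD11: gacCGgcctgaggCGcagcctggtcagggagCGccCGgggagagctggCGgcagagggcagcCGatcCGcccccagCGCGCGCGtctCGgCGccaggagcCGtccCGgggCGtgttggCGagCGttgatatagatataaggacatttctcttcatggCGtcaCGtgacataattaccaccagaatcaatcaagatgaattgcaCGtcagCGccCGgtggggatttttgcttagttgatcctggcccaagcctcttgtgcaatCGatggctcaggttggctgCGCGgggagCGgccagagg
HOXD8: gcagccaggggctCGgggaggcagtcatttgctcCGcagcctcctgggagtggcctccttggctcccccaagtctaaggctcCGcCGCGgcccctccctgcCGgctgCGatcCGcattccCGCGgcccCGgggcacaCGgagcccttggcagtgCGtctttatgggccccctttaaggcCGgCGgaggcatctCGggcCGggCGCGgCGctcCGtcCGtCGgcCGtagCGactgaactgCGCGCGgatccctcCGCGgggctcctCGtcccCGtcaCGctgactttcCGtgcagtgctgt
HOXD4: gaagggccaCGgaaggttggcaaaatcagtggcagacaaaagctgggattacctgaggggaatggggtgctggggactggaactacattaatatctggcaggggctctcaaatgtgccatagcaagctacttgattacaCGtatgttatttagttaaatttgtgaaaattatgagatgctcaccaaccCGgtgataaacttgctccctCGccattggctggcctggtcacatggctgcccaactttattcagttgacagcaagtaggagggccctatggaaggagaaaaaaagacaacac
HOXA10: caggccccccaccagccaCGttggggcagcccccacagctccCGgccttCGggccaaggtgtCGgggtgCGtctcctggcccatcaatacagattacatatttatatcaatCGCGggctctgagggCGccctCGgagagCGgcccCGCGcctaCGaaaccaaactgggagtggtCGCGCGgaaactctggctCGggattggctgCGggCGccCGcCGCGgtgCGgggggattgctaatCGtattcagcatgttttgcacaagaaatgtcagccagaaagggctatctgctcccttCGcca
HOXA11: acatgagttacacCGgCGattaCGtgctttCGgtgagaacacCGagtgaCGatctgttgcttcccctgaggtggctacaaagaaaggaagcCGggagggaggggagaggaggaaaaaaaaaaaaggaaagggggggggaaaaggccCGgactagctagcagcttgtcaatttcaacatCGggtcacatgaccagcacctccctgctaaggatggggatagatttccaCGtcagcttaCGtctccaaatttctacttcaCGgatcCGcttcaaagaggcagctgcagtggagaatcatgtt

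The shared HOXC4 and HOXC5 window held 15 CpG, HOXD11 27, HOXD8 34, HOXD4 4, HOXA10 25 and HOXA11 13. Over all windows the median was 25 CpG in the 11 windows of genes that were on (15 to 44, with the window shared by HOXC4 and HOXC5 counted for each), 15 in the 9 windows of low genes (0 to 29) and 24 in the 5 windows of undetected genes (4 to 36), beside 14 in all 35116 RefSeq promoters. CpG content thus overlapped between genes that were on and genes that were not. Of 4 motifs searched on both strands, none of which contains another, CCAAT was in 9 of the 11 windows of genes that were on. It was in 3 of the 9 of low genes and in 4 of the 5 of undetected ones, against 34.6% of all promoters. The 9 low windows belong to 3 genes, and most are starts of HOXA3. Their CCAAT count and median CpG thus mostly describe HOXA3. HOXA2, HOXA3 and HOXD12 each had CCAAT in a window. TATAAA was in 5 of the 25 windows, HOXA10 among them, against 11.5%, and TGATTNAT, a joint site of HOX and PBX proteins, was in 2, one of them HOXD11, against 2.82%. The retinoid receptor motif AGGTCA was in 0 of 25, against 13.8%.

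The 2 libraries that stood apart also had another HOX pattern. HOXB9 made up 52.5% of HOX CPM in the GFP tracer library of index set 1 and 43.3% in the GFP tracer with Dam library of that set, against 24.6% to 30.2% in the other 10. In the same pair HOXB9 itself stood at 114 and 93.0 CPM, against 59.4 to 76.2 CPM elsewhere, whereas the other HOX genes together summed to 102.9 and 121.7 CPM, against 152.1 to 192.1 CPM. These 2 libraries were the 2 lowest of the 12 for 17 of the 29 HOX genes that passed the filter on low counts. The same count was not made over all tested genes, so it is no measure of a trait of HOX genes. HOXB6 was one of the 17, with 7.16 and 9.59 CPM in these 2 libraries and 16.4 to 21.8 CPM in the other libraries. Some cell type markers also differed in the pair, in no single direction. ESRP1, an epithelial splicing factor, had 6.76 and 10.7 CPM in the pair, against 0.0889 to 0.377 CPM elsewhere, whereas KRT8, another epithelial marker, had 143 and 98.7 CPM, against 153 to 252 CPM. VIM, a mesenchymal marker, had 2320 and 1743 CPM, against 3304 to 4202 CPM, whereas THY1 had 0.735 and 0.813 CPM, against 0.0885 to 0.674 CPM. COL6A1, LOX, FBN1 and FN1 lay within the range of the other libraries. The summed level of the 7 epithelial markers was 222.7 and 162.6 CPM in the pair, against 219.3 to 324.6 CPM elsewhere, with KRT14 at no more than 3 reads, and that of the 10 fibroblast markers was 4051 and 4299 CPM, against 4774 to 7665 CPM. CBX2, a Polycomb gene, had 2.25 and 3.58 CPM, against 14.3 to 18.1 CPM. The part of these in the HOX pattern was not tested.

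**Figure D2:**
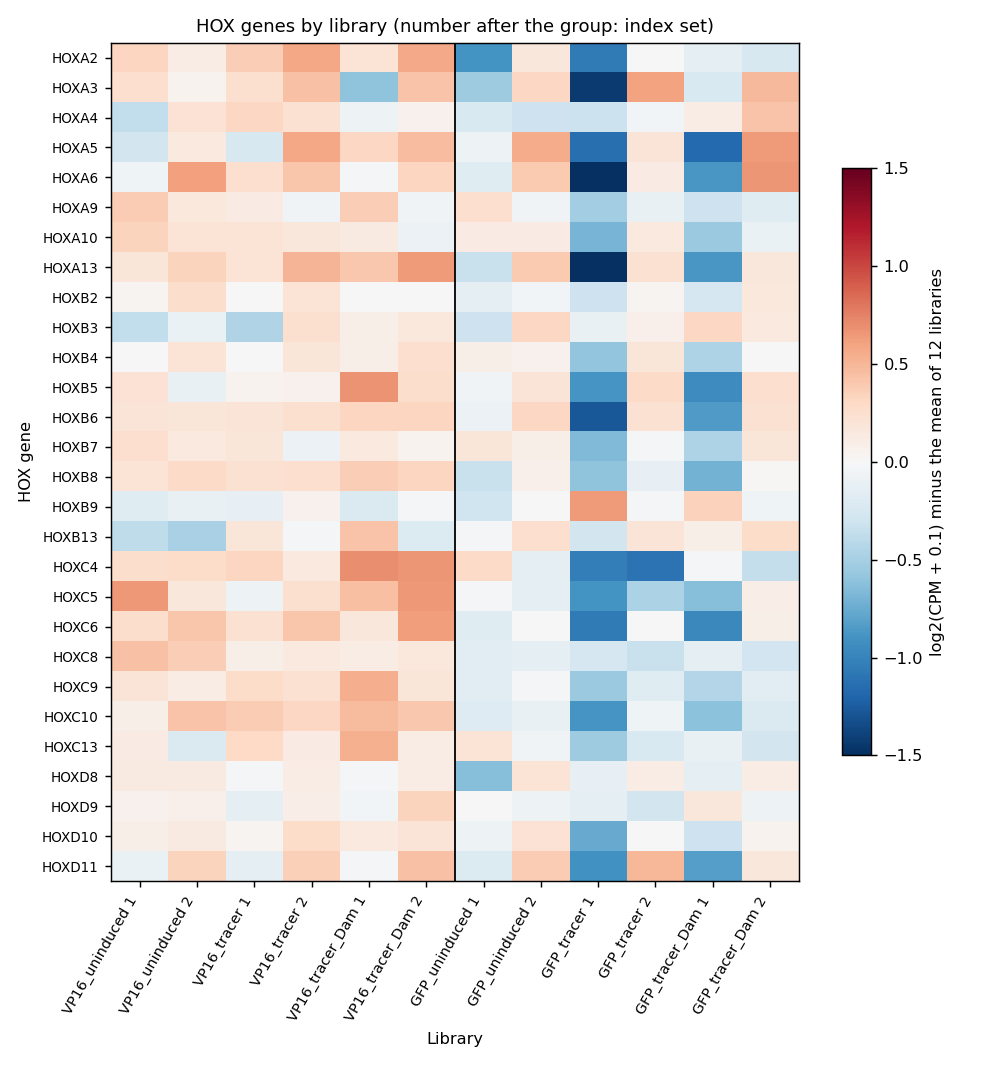
28 tested HOX genes (down the page, by cluster and paralog group) in the 12 libraries (across, VP16 left of GFP), as log2(CPM + 0.1) minus the gene's mean over the libraries. Blue marks a lower and red a higher value than the mean; the GFP_tracer 1 and GFP_tracer_Dam 1 columns are blue for most genes and red for HOXB9, at 114 and 93.0 CPM.

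To ask whether HOX expression differed between the clones, the 3 VP16 groups were compared with the 3 GFP groups in edgeR's quasi-likelihood test on all 17262 genes that passed the filter, with Benjamini-Hochberg adjustment at 0.05. Of the 29 HOX genes tested, 5 were higher in the VP16 clone and 0 were lower, beside 7.64% of all tested genes called, 2.62% higher and 5.01% lower. HOXC held 4 of the 5, namely HOXC4, HOXC8, HOXC9 and HOXC10. The median difference over the 29 genes was 0.31 on the log2 scale and 26 were above 0, beside a median of 0.00 and 50.2% above 0 for all genes. In bulk RNA, fewer cells that express a gene and less RNA per cell cannot be told apart.

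HOXC8 had 5.09, 5.34 and 6.57 CPM in VP16 libraries and 3.80, 4.14 and 4.38 CPM in GFP libraries (lowest, median and highest of 6 each). HOXC10, a gene of the lumbar spinal cord and hindlimb in mice, had 6.08, 7.53 and 7.96 CPM in VP16 libraries and 3.04, 4.93 and 5.47 CPM in GFP libraries. For HOXC9 the values were 6.78, 7.25 and 9.16 CPM in VP16 libraries and 4.21, 5.54 and 6.21 CPM in GFP libraries. In all of these genes each of the 6 VP16 libraries was above each of the 6 GFP libraries. The log2 differences were 0.44 ± 0.10 (SE) for HOXC8, 0.69 ± 0.16 for HOXC10 and 0.51 ± 0.12 for HOXC9, with edgeR adjusted p of 0.0295, 0.0396 and 0.0396.

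HOXC4 had the largest difference of the 29, 0.86 ± 0.16 (SE; edgeR adjusted p = 0.0163), from 1.24, 1.39 and 1.86 CPM in VP16 libraries and 0.464, 0.919 and 1.37 CPM in GFP libraries. Its groups overlapped by 1 library, since GFP uninduced cells of index set 1 had 1.37 CPM. HOXC4 rests on 10 to 45 reads a library. In the files' build, GRCh37, the 4 HOXC genes lie at chr12:54378849-54384063 (HOXC10), chr12:54388679-54397121 (HOXC9), chr12:54402832-54407570 (HOXC8) and chr12:54410715-54449814 (HOXC4).

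**Figure D3:**
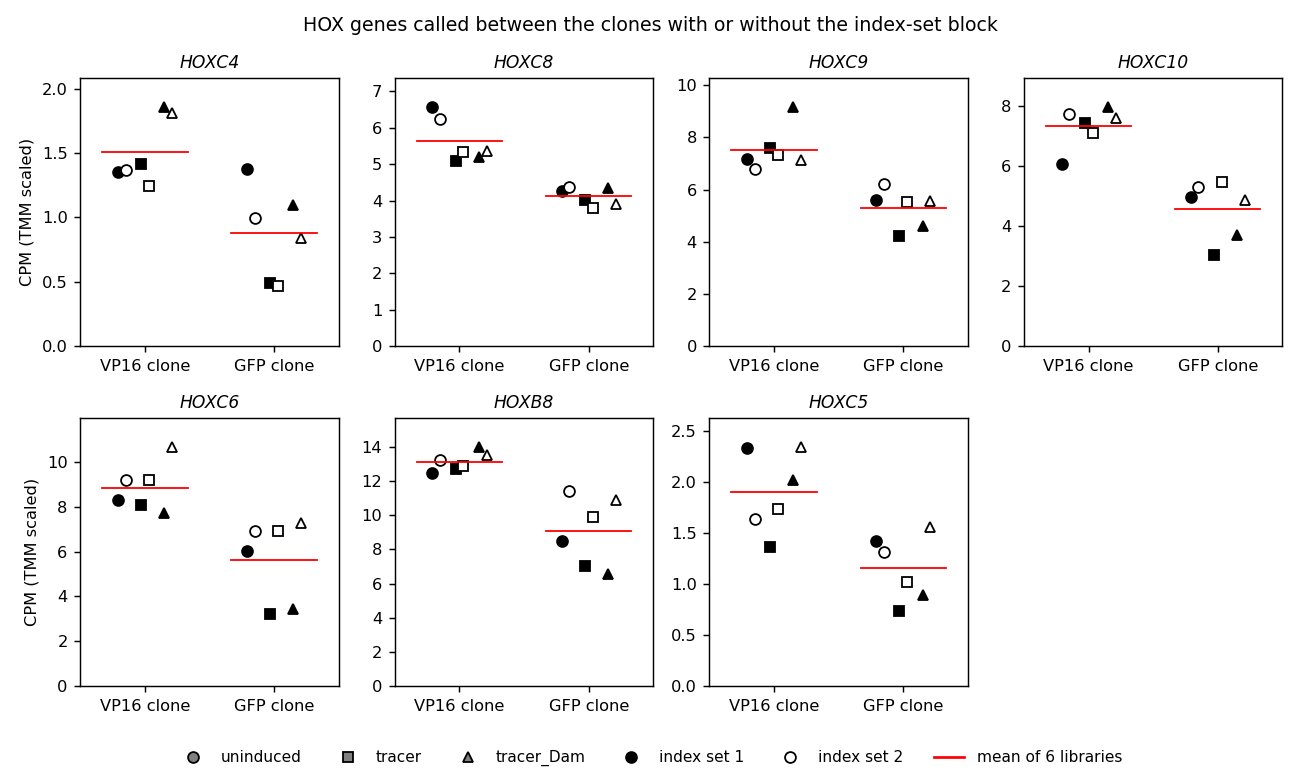
CPM of 7 HOX genes that were called between the clones, alone or with the index set as a block, in the 6 VP16 libraries (left) and the 6 GFP libraries (right) of each panel. Symbols give the condition, filled symbols index set 1 and open symbols index set 2, and the red bar the mean; HOXC8, HOXC9, HOXC10, HOXC6 and HOXB8 have no overlap between the clones, and HOXC4 and HOXC5 do.

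When a term for the index set was added (the block), 8 of 29 were higher and 0 lower, beside 20.9% of all tested genes called, 9.03% higher and 11.9% lower; HOXC6, HOXC5 and HOXB8 joined. HOXC6 had 7.72, 8.75 and 10.7 CPM in VP16 libraries and 3.23, 6.47 and 7.29 CPM in GFP libraries, and HOXB8, a gene of early myeloid cells, had 12.5, 13.1 and 14.0 CPM in VP16 libraries and 6.59, 9.22 and 11.4 CPM in GFP libraries. HOXC5 had 1.37, 1.88 and 2.34 CPM in VP16 libraries and 0.735, 1.17 and 1.56 CPM in GFP libraries. HOXC6 and HOXB8 did not overlap between the clones and HOXC5 did. Their blocked log2 differences were 0.69 ± 0.16, 0.56 ± 0.12 and 0.73 ± 0.18 (SE) for HOXC6, HOXB8 and HOXC5, with edgeR adjusted p of 0.0187, 0.0141 and 0.0272, against 0.138, 0.0732 and 0.0635 without the block. By the measure of no overlap alone, 6 of the 29 genes had all VP16 libraries above all GFP libraries and 0 the reverse, beside 4.59% and 6.08% of all tested genes.

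As a cluster, HOXC had 4 of 7 genes called higher in the VP16 clone and 0 lower. All 7 differences were above 0, with a median of 0.66, and all 7 had an unadjusted p under 0.05, against 4098 of the 17262 tested genes. The summed HOXC level was 37.2 to 41.3 CPM in VP16 libraries and 19.2 to 30.0 CPM in GFP libraries. HOXA summed to 36.2 to 39.5 CPM in VP16 libraries and 19.4 to 35.9 CPM in GFP libraries, and its 9 tested genes had a median difference of 0.31. HOXB summed to 133.7 to 151.0 CPM in VP16 libraries and 120.7 to 155.5 CPM in GFP libraries, and HOXD to 31.3 to 37.9 CPM and 22.3 to 36.3 CPM. Neither of those had a call without the block. The lowest GFP sums of HOXA, HOXC and HOXD and the highest of HOXB were in the GFP tracer library of index set 1. In the GFP libraries other than those that stood apart, HOXA summed to 33.1 to 35.9 CPM and HOXC to 27.5 to 30.0 CPM. HOXB summed there to 120.7 to 147.7 CPM and HOXD to 28.2 to 36.3 CPM. HOXB9, the most abundant gene, was not called, at -0.22 with a 95% interval of -0.52 to 0.09. That value includes its 114 and 93.0 CPM in the libraries that stood apart.

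**Figure D4:**
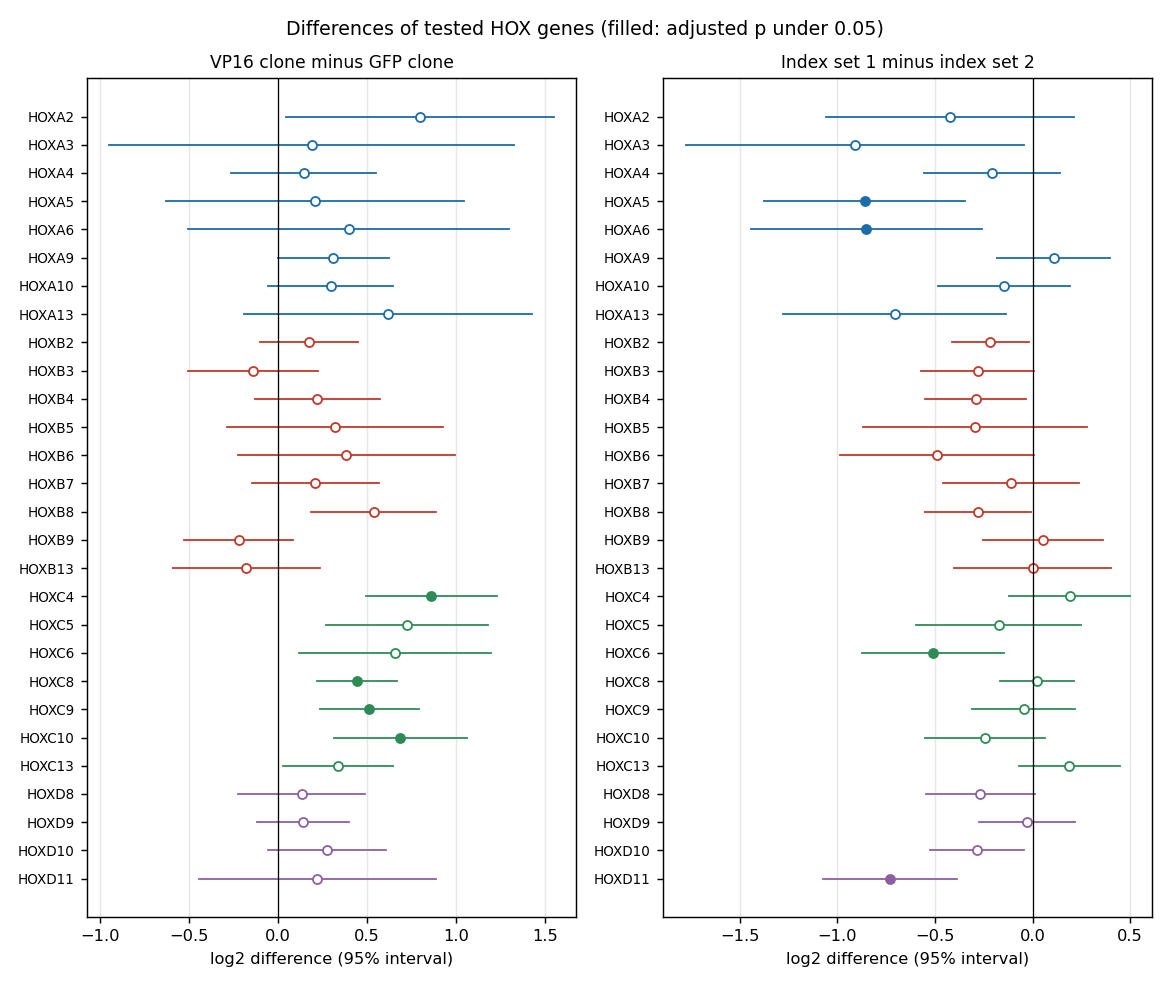
Log2 differences of 28 tested HOX genes with 95% intervals, VP16 minus GFP clone on the left and index set 1 minus index set 2 on the right, coloured by cluster. Filled points have an edgeR adjusted p under 0.05; on the left these are 4 HOXC genes, all above 0, and on the right HOXA5, HOXA6, HOXC6 and HOXD11, all below 0.

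The 2 GFP libraries that stood apart bore on these values. Without them the median over the 29 genes was 0.09, 4 genes were called (among them HOXC4 at 0.93, HOXC8 at 0.47 and HOXC10 at 0.49), beside 10.9% of all tested genes, and HOXC9 was at 0.39 with an edgeR adjusted p of 0.0759. With the block as well, 7 were called, HOXC9 among them at 0.36, beside 33.3% of all tested genes. HOXC6 was then at 0.43 and still called, and HOXC5 was at 0.52 and no longer called (edgeR adjusted p = 0.0506). Within index set 1 the median clone difference was 0.60 and within index set 2 it was 0.13, and in index set 2, which holds neither library, all 7 HOXC differences were above 0, with 0.19 for HOXC13 as the lowest and 0.91 for HOXC4 as the highest. The unblocked count also depended on single libraries of both clones. It was 0 without the VP16 uninduced library of either set, without the VP16 tracer or VP16 tracer with Dam library of index set 1, or without the GFP uninduced library of index set 2. Without other libraries it also changed, in both directions, and so did the share of all tested genes called. Each of these fits leaves 1 library in a group. With the block, the 12 fits without 1 library put HOXC4 at 0.81 to 0.92, HOXC8 at 0.42 to 0.46 and HOXC10 at 0.59 to 0.83. HOXC9, HOXC6, HOXC5 and HOXB8, also called with the block, each missed the threshold in some of these fits.

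Exons of some of these genes are shared. In GENCODE 29, 59.9% of the HOXC5 exon length is also exon of another annotated gene, as is 17.8% of HOXC4, 15.7% of HOXC6, 9.82% of HOXC10, 9.71% of HOXC9 and 0% of HOXC8 and HOXB8. HOXC4 and HOXC6 share exons with each other, and each also with a second entry named HOXC5. The HOXC5 gene tested here shares exon with another entry of its own name and with 1 other gene, on the same strand, but not with HOXC4 or HOXC6. Reads of these 3 genes may therefore have been split or left out, and their values are uncertain to that extent.

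Within single conditions the clones differed in 0 of 29 HOX genes without the block, beside 0.278% of all tested genes called in uninduced cells, 0.33% in tracer cells and 0.261% in cells with tracer and Dam. At an unadjusted p under 0.05 there were 2, 7 and 7 of 29 HOX genes in those conditions, beside 1287, 1772 and 1894 of the 17262 tested genes. DESeq2 and limma-voom also called 0 HOX genes. HOXC8 had the smallest p in uninduced cells, with 6.57 and 6.24 CPM in VP16 cells and 4.26 and 4.38 CPM in GFP cells (log2 difference 0.57, 95% interval 0.18 to 0.95, edgeR adjusted p = 0.351). In tracer cells it was HOXC4, with 1.41 and 1.24 CPM in VP16 cells and 0.490 and 0.464 CPM in GFP cells, which is 1.47 ± 0.30 on the log2 scale (SE; edgeR adjusted p = 0.130). That difference was called with the block (edgeR adjusted p = 0.0325), where 1 of 29 HOX genes and 2.84% of all tested genes were called. It was not called with the block in a fit of only the tracer groups of both clones (1.46, edgeR adjusted p = 0.376). With the block 0 HOX genes were called in uninduced cells and 0 with tracer and Dam, beside 1.89% and 3.19%.

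Induction of the tracer changed no HOX gene past the threshold in either clone, and neither did Dam-LaminB1 on top of it. In each of these 4 comparisons, and in both tests of whether the change differed between the clones, 0 of 29 HOX genes and 0% of all tested genes were called in the fit of all 12 libraries, with or without the block, and DESeq2 and limma-voom also called 0. With the block in fits of only the groups compared, 838 of 15620 genes were called for the tracer and 257 of 15848 for Dam in the VP16 clone, with 0 of 28 HOX genes in both, and 0 genes in the other 4 tests. At an unadjusted p under 0.05 there was 1 HOX gene, HOXC4, for the tracer in the GFP clone, for Dam in the GFP clone and for the difference of the tracer change between clones, and 0 in the other 3 tests, beside 50 to 125 of all tested genes.

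HOXC4 had the smallest p in these tests where any HOX gene was under 0.05. In the VP16 clone it had 1.36 and 1.37 CPM in uninduced cells, 1.41 and 1.24 CPM in tracer cells and 1.86 and 1.81 CPM in cells with tracer and Dam. In the GFP clone it had 1.37 and 0.995 CPM in uninduced cells, 0.490 and 0.464 CPM in tracer cells and 1.10 and 0.842 CPM in cells with tracer and Dam. Both GFP tracer libraries were thus below all other 10 libraries, and both libraries of the VP16 clone with tracer and Dam were above all others. In the VP16 clone the log2 changes were -0.03 ± 0.27 (SE) for the tracer and 0.46 ± 0.27 for Dam (edgeR adjusted p = 1.0 for both), and in the GFP clone they were -1.30 ± 0.30 for the tracer (edgeR adjusted p = 0.999) and 1.02 ± 0.30 for Dam (edgeR adjusted p = 1.0). The difference of the tracer change between the clones was 1.27 with a 95% interval of 0.35 to 2.18 and an edgeR adjusted p of 1.0. The 2 tracer libraries of the GFP clone hold 10 HOXC4 reads each, and the uninduced ones 31 and 25.

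Over the 29 genes, the median changes are given for each index set, since the 2 libraries that stood apart are both in the first. In the VP16 clone the tracer gave a median of 0.00 within the first set and 0.03 within the other, and Dam over tracer gave 0.11 and 0.01. For the tracer in the GFP clone the median was -0.69 within the first set, where 3 of 29 were above 0, and -0.09 within the other, where 9 were. Without the libraries that stood apart, the pooled median of -0.26 became 0.08, or -0.007 with the block. The unblocked value sets the GFP tracer library of index set 2 against uninduced GFP libraries of both sets. HOXB9 was at 0.93 in index set 1 and at -0.03 in index set 2. Dam over tracer in the GFP clone gave medians of 0.21 and 0.01. Whether the changes differed between the index sets was not tested.

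**Figure D5:**
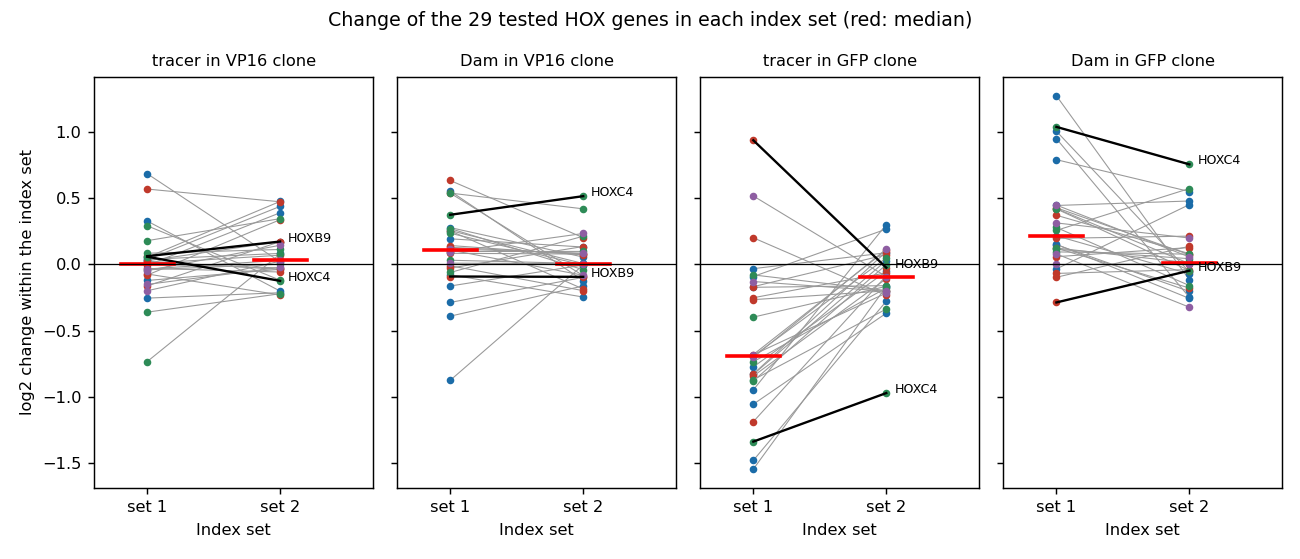
Log2 change of each of the 29 tested HOX genes within index set 1 and within index set 2, for the tracer over uninduced cells and for Dam over tracer cells in each clone. Lines join a gene's 2 values, red bars mark the medians and HOXB9 and HOXC4 are drawn in black; the tracer panel of the GFP clone has medians of -0.69 and -0.09, and HOXC4 is at -1.34 and -0.97 there.

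The member with the smallest p in the other tests also missed the threshold. For the tracer in the VP16 clone it was HOXC8, with 5.09 and 5.33 CPM in tracer cells and 6.57 and 6.24 CPM in uninduced cells (log2 change -0.30, 95% interval -0.68 to 0.09, edgeR adjusted p = 1.0). For the difference of the Dam change between the clones it was HOXA4. This gene had 0.949 and 1.06 CPM with Dam and 1.27 and 1.20 CPM without it in VP16 tracer cells, and 1.10 and 1.39 CPM with Dam and 0.784 and 0.974 CPM without it in GFP tracer cells. The difference was -0.79 with a 95% interval of -1.78 to 0.19 (edgeR adjusted p = 1.0).

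Between the index sets, 4 of 29 HOX genes were lower in set 1 and 0 were higher, beside 28.2% of all tested genes called, 12.6% lower and 15.6% higher; the HOX share is near the share of all genes called lower. HOXD11, which builds the forearm together with HOXA11 in mice, had 2.50, 4.23 and 4.70 CPM in set 1 and 5.39, 6.19 and 6.77 CPM in set 2 (lowest, median, highest of 6), with no overlap, which 7.23% of all tested genes showed in this direction and 7.35% in the other. Its log2 difference was -0.73 ± 0.15 (SE; edgeR adjusted p = 0.0102), and it was still called when any single library was left out and, at -0.51, without the 2 that stood apart. HOXA5, needed for lung development in mice, had 1.10, 2.14 and 3.22 CPM in set 1 and 2.87, 3.72 and 4.09 CPM in set 2, a difference of -0.86 ± 0.22 (edgeR adjusted p = 0.0253). HOXA6 and HOXC6 were at -0.85 ± 0.26 and -0.51 ± 0.16 (edgeR adjusted p of 0.0416 and 0.0448). HOXA6 had 0.245, 0.882 and 1.18 CPM in set 1 and 1.07, 1.32 and 1.60 CPM in set 2, and HOXC6 had 3.23, 6.87 and 8.30 CPM in set 1 and 6.91, 8.24 and 10.7 CPM in set 2. These 3 genes overlapped between the sets. Without the 2 libraries that stood apart, HOXA5 was at -0.52 and HOXC6 at -0.26, both still called. The count of 4 fell when any single library was left out, and so did the share of all tested genes called.

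The median set difference of the 29 genes was -0.24, beside 0.01 for all genes, and lay at -0.01, -0.13 and -0.04 in the uninduced, tracer and tracer with Dam groups of the VP16 clone and at -0.20, -0.49 and -0.39 in those of the GFP clone. Without the 2 libraries that stood apart it was -0.14 and 8 genes were called, beside 39.6% of all tested genes. HOXA5, HOXA13, HOXB3, HOXB9, HOXC6 and HOXD11 were then lower in set 1, HOXA9 and HOXC13 were higher, and HOXA6 was no longer called (-0.48, edgeR adjusted p = 0.0728).

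Genes that work with or act on the HOX clusters were read from lists. Of 7 retinoid genes, beside the 2.62% higher and 5.01% lower of all tested genes, 1 was higher in the VP16 clone and 0 were lower, the one being the receptor gene RARG at 0.82 ± 0.12 (edgeR adjusted p = 0.00720). With the block 3 were higher and 2 lower, beside 9.03% and 11.9% of all tested genes. None of 9 Trithorax and menin genes, of 12 Polycomb genes or of 9 neighbours of the clusters was called between the clones (0 each), and their median differences were 0.05, -0.02 and 0.02. Of 9 tested noncoding genes within the clusters 1 was higher, HOTAIRM1, by 0.51 ± 0.11 (SE; edgeR adjusted p = 0.0290), and with the block 2 were. ParaHox and EVX genes, which flank or resemble the clusters, had 0 genes at 1 CPM and none was tested.

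Between the index sets, where 15.6% of all tested genes were higher in set 1 and 12.6% lower, these lists gave 0 higher and 4 lower of 9 Trithorax genes, 0 and 5 of 12 Polycomb genes, 1 and 1 of 7 retinoid genes, 2 and 1 of 9 cluster neighbours and 0 and 2 of 9 noncoding genes. The lower ones include MLL, the Trithorax methyltransferase that maintains HOX expression, with 135 to 166 CPM in set 1 and 233 to 321 CPM in set 2 (-0.87 ± 0.07, edgeR adjusted p = 0.000353), and EZH2, the Polycomb methyltransferase, with 52.4 to 70.9 CPM in set 1 and 78.9 to 91.4 CPM in set 2 (-0.40 ± 0.07, edgeR adjusted p = 0.00568). The clones also differed in markers. Of 10 fibroblast markers 3 were higher and 2 lower in the VP16 clone, beside 2.62% higher and 5.01% lower of all tested genes. None of 3 tested epithelial markers was called (0). Of 6 neural markers 0 were higher and 3 lower, with summed neural levels of 4.74 to 6.03 CPM in VP16 libraries and 13.5 to 17.5 CPM in GFP libraries. The part of these markers, of depth and of the index set in the HOX differences was not tested.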

How the data were processed

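Per the labels' protocols, Trizol RNA went into TruSeq libraries. The submitters' processing notes name TopHat 1.4.0, Bowtie 0.12.7, HTSeq and the build GRCh37. How HTSeq treated strand and overlaps is not stated in the sources used. The deposited values are whole-number read counts per gene in 12 libraries, made by the authors without normalization. The members and gene lists were chosen with earlier results of these data known. Counts were tested with edgeR 4.0.16 (quasi-likelihood, TMM scaling, filter on low counts, 17262 genes) in R 4.3.3, with 1 coefficient per group over all 12 libraries and Benjamini-Hochberg adjustment at 0.05; the script was tested on simulated data. Intervals are 95%. Floors of 3 reads cover counting error only. The index set was fitted as a block in an alternative, and the index set comparison comes from that model. Its libraries deviated together: over 15 pairs of groups the correlation of deviations from the group means was 0.41 to 0.86, and the pairing rests on sample numbers and index sequences in the labels. DESeq2 1.42.0, limma 3.58.1, other scalings and filters, and leaving out libraries were alternatives. Leaving out libraries within the block was chosen after seeing the data. Exon lengths come from GENCODE 29, which matched 34 genes by ID and HOXB7 by symbol. GENCODE 29 and the RefSeq promoters are on GRCh38, another build than the files'. Values in every library, or their range, are given for members called with or without the block, the 2 highest genes per kb of each cluster and the gene with the smallest p in each comparison. Some genes are not reported here by name and are left out of the plots of single genes, while counts and medians include them.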

Additional observations from a re-analysis of the deposited data

How the results depend on the processing

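The replicate block by index set, in which the pairing of libraries is used, called 8 HOX genes between the clones against 5 without it. Of all tested genes it called 20.9% against 7.64%. In tracer cells it called 1 HOX gene against 0, beside 2.84% against 0.33% of all tested genes. Without the 2 GFP libraries of index set 1 that stood apart, the GFP tracer and GFP tracer with Dam groups hold 1 library each. The median HOX difference between the clones over all conditions was then 0.11 with the block and 0.09 without it. Fitted to only the groups compared, the block called 1 of 28 HOX genes in uninduced cells and 0 of 28 in tracer cells. The shares of all tested genes called there were 22.2% and 0.0442%. The block changed no HOX count of the tracer, Dam and difference tests. With no filter on low counts, 3 genes were called between the clones, beside 4.34% of all genes. Of these 3, 1 was among the 5. Leaving out 1 library at a time gave 0 to 8 calls between the clones, 4 to 14 with the block, and 1 to 3 between the index sets. Between the index sets, 7 of 28 HOX genes were called in only the 8 libraries of the VP16 groups and uninduced GFP cells. The share of all tested genes called there was 40.9%. HOXC4 in uninduced cells was at 0.20, at -0.021 without the GFP uninduced library of index set 2 and at 0.43 without that of index set 1, and none of these was called; over all libraries left out it spanned -0.021 to 0.43. The cause of these shifts was not tested. Scaling by DESeq2's size factors or by library size alone gave the same counts of 5 and 4. With 2 libraries a group, HOX genes of about 1 CPM rest on few reads, and a 95% interval of 1 condition's change spans about 1 log2 unit or more for HOXC4.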
